A study of Bubalus bubalis with 6 samples.

Results

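The genes of excitation-contraction coupling and calcium handling were examined in proliferating and differentiating muscle stem cells (MuSCs) of the water buffalo. The group was defined by 48 gene symbols, of which 43 were listed among the 24616 genes of the deposited table, and all 43 had enough counts to be tested. FKBP1A, TRDN, ASPH, SRL and SLN were not found under these symbols and were not analysed here. The rule names the genes by symbol and uses no expression value, but the symbols were chosen with earlier results of these data known.

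The MuSCs were primary cells isolated from fetal longissimus muscle. In the GM group (n = 3) they were kept proliferating in growth medium with fetal bovine serum, and in the DM group (n = 3) they were moved to a differentiation medium with little horse serum, in which such cells fuse into myotubes. Polyadenylated RNA was sequenced from each sample, and gene counts summed to 36657735 to 40305237 per GM sample and to 35615864 to 38177614 per DM sample. The labels do not say whether the 3 samples of a group were separate cultures or animals, so p-values measure only the spread between these samples, which may be technical. They do not give the time in differentiation medium either. The paper describes several days in that medium, without a time for each sequenced sample. No sorting of the cells is stated, and in bulk RNA fewer cells of a type and less RNA per cell cannot be told apart.

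In skeletal muscle, an action potential travels along the T-tubule, an inward fold of the surface membrane, and is sensed by the dihydropyridine receptor (DHPR), a voltage-gated calcium channel. The DHPR opens the ryanodine receptor RYR1 in the facing membrane of the sarcoplasmic reticulum (SR), calcium leaves the SR and the myofilaments contract. SERCA pumps return calcium to the SR, where calsequestrin buffers it, junctophilins hold both membranes together at the triad, and STIM and ORAI proteins refill the store from outside the cell.

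A gene was called higher or lower in DM when its fitted log2 fold change was above 1 in size and its adjusted p-value under 0.05 (edgeR quasi-likelihood test, Benjamini-Hochberg adjustment over all 15576 tested genes). By this rule 18 of the 43 genes (41.9%) were higher in DM, against 15.0% of all tested genes, and 1 gene (2.33%), the luminal chaperone and calcium buffer CALR, was lower, against 10.3% of all tested genes. The other 24 genes were not called, and 11 of them passed the adjusted p-value with changes below 2-fold. The counts by role below stand against the same 15.0% higher and 10.3% lower of all tested genes, and no role was tested as a set. With no minimum fold change, 30 of the 43 genes (69.8%) passed, a share near the 63.0% of all tested genes that did. The log2 fold change was positive for 35 genes and negative for 8, with a median of 0.85, while the median over all tested genes was 0.03. The samples of both groups did not overlap in CPM (counts scaled to a common, TMM-corrected library size) for 30 of the 43 genes (69.8%), a share near the 68.8% seen over all tested genes.

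**Figure D1:**
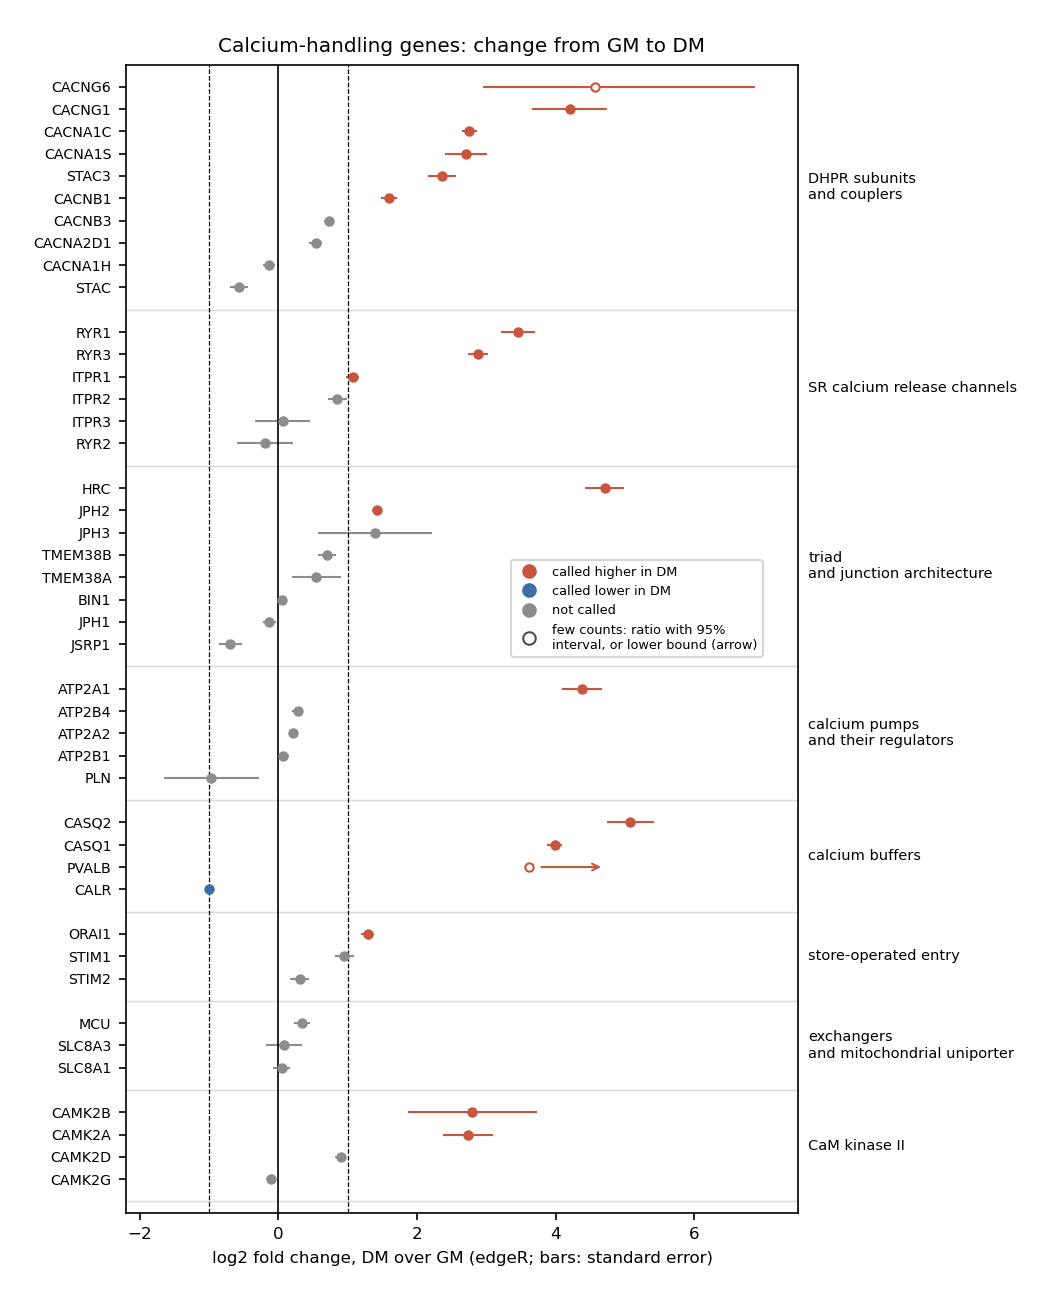
Log2 fold change from GM to DM (horizontal axis) of the 43 calcium-handling genes, grouped by role. Filled points and bars are the edgeR estimate and its standard error (3 GM against 3 DM samples), dashed lines mark a 2-fold change, and open points are genes with almost no counts in GM, shown as the ratio with its 95% counting interval (CACNG6) or as a lower bound (PVALB). Of the 19 coloured genes, 18 lie to the right of the upper line and CALR alone lies at the lower line.

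The samples were not equally alike. DM replicate 3 stood apart from the other DM samples: over all genes, the chi-square divided by its degrees of freedom was 40.5 to 41.4 against them, compared with 11.7 for DM replicates 1 and 2 and with 6.22 to 10.6 for pairs of GM samples. It held the highest CPM of the DM samples for 26 of the 43 genes, against 37.7% of all tested genes, and for 15 of the 18 that were higher, against 42.2% of all genes called higher. GM replicate 2 held the lowest CPM of the GM samples for 12 of the 18, against 43.9% of all genes called higher. A list of myogenic markers moved in part in the same way: of 11 tested, 7 were higher and 1 lower in DM, and their summed CPM was lowest in GM replicate 2 (2853) within a GM range up to 3454, and highest in DM replicate 3 (10140) within a DM range from 7274. DM replicate 3 held the highest CPM of the DM samples for 7 of these 11 markers. It held the lowest for the factors PAX7 (12.3, 10.9 and 6.11 CPM in DM), MYOD1 (67.2, 75.0 and 39.3) and MYOG (161, 185 and 155). The part of this difference between replicates in the results was not tested. Without DM replicate 3 the number of genes called higher was 19, with CAMK2B lost and JPH3 and STIM1 gained. CALR was then no longer called lower.

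The 10 genes of the DHPR and its couplers included 6 that were higher in DM, CACNA1S, CACNA1C, CACNB1, CACNG1, CACNG6 and STAC3, and none that was lower. CACNA1S (chr16:81471758-81527931 in the coordinates of the deposited table, which names no genome build) encodes the pore and voltage sensor of the skeletal DHPR. It was at 3.71, 1.66 and 4.11 CPM in GM replicates 1 to 3 and at 17.5, 16.1 and 28.1 CPM in DM replicates 1 to 3. The groups were well separated, with GM replicate 2 lowest and DM replicate 3 highest, and the log2 fold change was 2.71 ± 0.31 (SE; edgeR adjusted p = 2.07e-05).

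CACNA1C, which encodes the pore of the L-type channel best known from heart and smooth muscle, was at 5.52, 5.96 and 5.88 CPM in GM and at 37.0, 36.0 and 44.4 CPM in DM. Its log2 fold change of 2.76 ± 0.10 (edgeR adjusted p = 1.05e-08) was as large as that of CACNA1S and the spread between replicates was narrower. The gene overlaps IL17RA on the same strand and CECR5 on the other, and the sources do not say how reads in overlaps were assigned. CACNB1, the cytoplasmic beta subunit of the skeletal DHPR, was at 7.81, 7.96 and 9.49 CPM in GM and at 23.7, 24.4 and 28.2 CPM in DM, without overlap (log2 fold change 1.60 ± 0.11, edgeR adjusted p = 5.86e-07). Its paralogue CACNB3 had more counts per kilobase in every sample and differed less, with 34.8, 35.7 and 34.4 CPM in GM and 60.2, 57.8 and 55.3 CPM in DM. The log2 fold change of CACNB3 was 0.72 ± 0.07 (edgeR adjusted p = 4.24e-06), which passed the p-value but not the 2-fold minimum.

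The gamma subunits were rare in GM. CACNG1, the gamma subunit of the skeletal DHPR, was read 31, 1 and 22 times in GM and 225, 253 and 421 times in DM, so that GM replicate 2 was almost empty and every DM sample was above every GM sample (log2 fold change 4.21 ± 0.54, edgeR adjusted p = 5.53e-05). CACNG6, a related gamma subunit, had 1, 0 and 2 counts in GM and 13, 18 and 32 in DM, a ratio of 23.7 with a 95% counting interval from 7.74 to 118. CACNA2D1, the alpha2-delta subunit that carries the channel to the surface, passed the p-value with a smaller difference, from 29.3 ± 2.33 CPM (SD, n = 3) in GM to 42.5 ± 4.91 CPM in DM (log2 fold change 0.54, edgeR adjusted p = 0.00068). CACNA1H, the pore of a T-type channel, was at 21.4 to 24.3 CPM in GM and 19.5 to 22.8 CPM in DM, with overlapping groups and an edgeR adjusted p of 0.217.

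STAC3 encodes an adaptor that the skeletal DHPR needs to reach and work at the triad. It was at 6.49, 5.19 and 8.47 CPM in GM and at 26.8, 32.3 and 44.2 CPM in DM, with DM replicate 3 highest and no overlap (log2 fold change 2.36 ± 0.21, edgeR adjusted p = 2.81e-06). STAC, its paralogue, differed in the opposite direction, with 91.6, 89.8 and 87.1 CPM in GM and 54.0, 50.9 and 76.7 CPM in DM. That difference passed the p-value below 2-fold (log2 fold change -0.56 ± 0.13, edgeR adjusted p = 0.00324).

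Of the 6 SR calcium release channels, RYR1, RYR3 and ITPR1 were higher in DM. RYR1 (chr18:48502352-48631056 in the table), the skeletal release channel, was at 8.34, 4.33 and 8.02 CPM in GM and at 62.2, 64.2 and 101 CPM in DM. The groups were far apart, GM replicate 2 was lowest and DM replicate 3 highest, and the log2 fold change was 3.46 ± 0.25 (edgeR adjusted p = 7.22e-07). RYR3, an isoform found mostly in developing muscle, was at 3.21, 2.38 and 2.66 CPM in GM and at 22.5, 19.0 and 19.3 CPM in DM, and here DM replicate 1 was the highest (log2 fold change 2.88 ± 0.14, edgeR adjusted p = 5.01e-08). RYR2, the cardiac isoform, was rare, with 16, 21 and 20 counts in GM and 17, 12 and 15 in DM, and the groups overlapped (edgeR adjusted p = 0.694).

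The inositol trisphosphate receptors release calcium in response to hormones and growth factors. ITPR1 was at 41.9, 34.1 and 35.0 CPM in GM and at 83.6, 78.8 and 71.0 CPM in DM, with DM replicate 3 the lowest of the DM samples. Its log2 fold change of 1.07 ± 0.10 (edgeR adjusted p = 3.22e-06) lay just past the minimum and the call was lost when counts were scaled by library size alone (0.97). ITPR2 was at 11.2, 9.85 and 7.78 CPM in GM and at 19.0, 17.7 and 15.4 CPM in DM, below 2-fold with a log2 fold change of 0.85 ± 0.14 (edgeR adjusted p = 0.000373). ITPR3 was under 1 CPM in every sample and its groups overlapped.

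**Figure D2:**
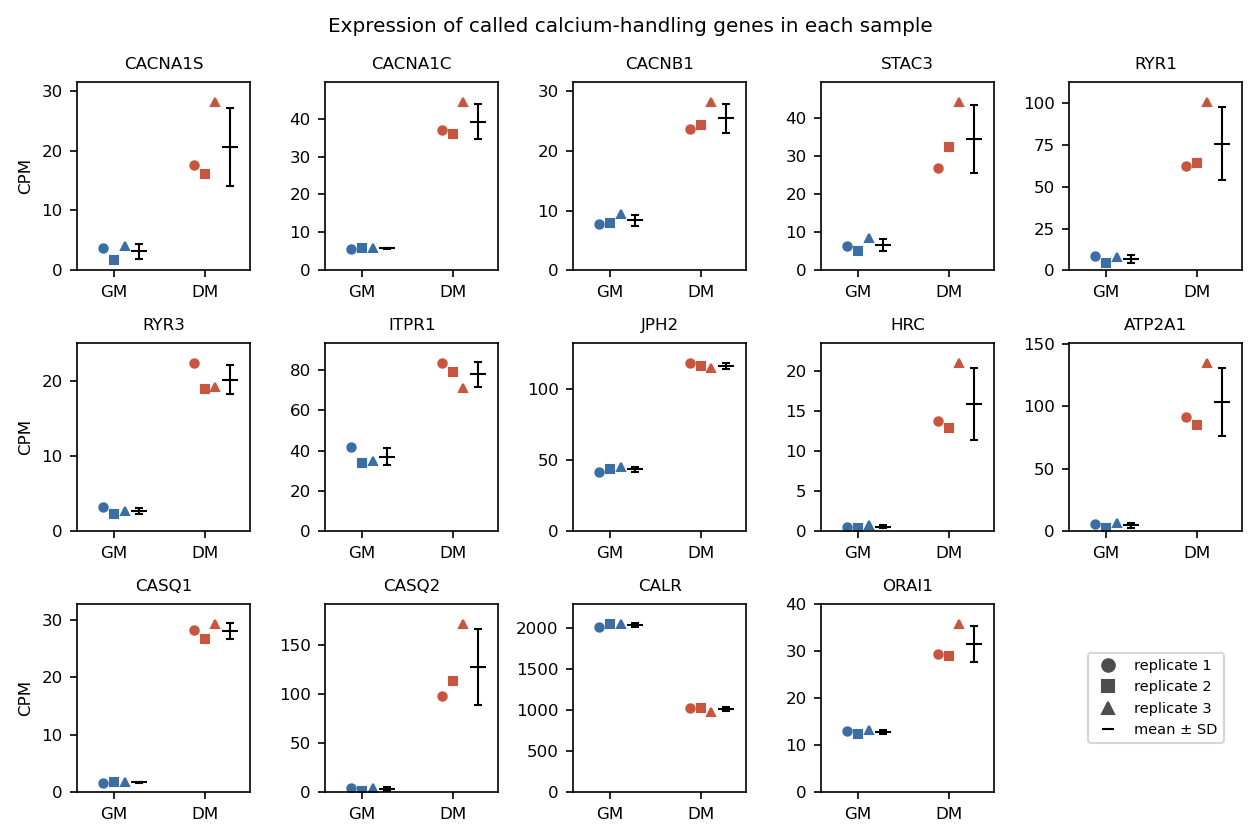
CPM (vertical axis, linear, from 0) in each GM and DM sample of the 14 called calcium-handling genes whose mean over the 6 samples was 5 CPM or more. Symbols mark replicates 1 to 3, and the bar beside each group is its mean ± SD (n = 3). Since only called genes are drawn, that the GM and DM samples are apart in all 14 panels is not a separate result. CALR is the panel in which DM is lower.

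The triad proteins were less uniform, with 2 of 8 higher. HRC, a histidine-rich calcium-binding protein of the SR lumen, was at 0.579, 0.409 and 0.844 CPM in GM and at 13.8, 12.9 and 21.1 CPM in DM (log2 fold change 4.71 ± 0.28, edgeR adjusted p = 1.64e-07). JPH2, a junctophilin that ties the SR to the T-tubule, was at 41.4, 43.6 and 45.4 CPM in GM and at 118, 116 and 114 CPM in DM. Its log2 fold change was 1.42 ± 0.06 (edgeR adjusted p = 2.68e-08), with the smallest standard error of the 18 genes that were higher. JPH1, the other junctophilin of skeletal muscle, was at 23.4, 21.1 and 21.7 CPM in GM and at 18.1, 19.9 and 22.3 CPM in DM, with overlap and an edgeR adjusted p of 0.247.

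The other triad genes were not called. BIN1, which shapes T-tubule membranes and was by level the third gene of the group, was at 173 to 189 CPM in GM and 177 to 211 CPM in DM. JSRP1, a junctional SR protein, was at 11.3, 13.5 and 12.7 CPM in GM and at 6.54, 6.67 and 9.89 CPM in DM, a log2 fold change of -0.69 ± 0.17 (edgeR adjusted p = 0.00396) below 2-fold. TMEM38A and TMEM38B encode the TRIC potassium channels that balance charge during release. TMEM38B, at 4.82 to 5.67 CPM in GM and 7.99 to 9.40 CPM in DM, passed the p-value (log2 fold change 0.70, edgeR adjusted p = 0.00104). TMEM38A, with 37, 24 and 38 counts in GM and 46, 29 and 54 in DM, did not (0.55, edgeR adjusted p = 0.197). JPH3, the junctophilin of brain, had 7, 4 and 1 counts in GM and 15, 11 and 2 in DM, too few to call (edgeR adjusted p = 0.162), though it was called without DM replicate 3 (log2 fold change 1.88, edgeR adjusted p = 0.0210).

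Among 5 pumps and regulators, ATP2A1 was the only gene called. ATP2A1 (chr25:26188434-26204655 in the table), the SERCA1 pump of fast fibres, was at 5.71, 2.62 and 6.62 CPM in GM and at 91.1, 84.7 and 135 CPM in DM. The log2 fold change was 4.38 ± 0.29 (edgeR adjusted p = 3.43e-07), with GM replicate 2 lowest and DM replicate 3 highest. ATP2A2, the SERCA2 pump of slow fibres, heart and most other cells, was abundant throughout, with 385, 345 and 353 CPM in GM and 422, 426 and 407 CPM in DM. Its groups did not overlap, but the log2 fold change was only 0.21 ± 0.06 (edgeR adjusted p = 0.012).

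PLN encodes phospholamban, which restrains SERCA2. It had 102, 86 and 69 counts in GM and 51, 63 and 1 in DM, so DM replicate 3 was almost empty while the other DM samples lay just below the GM range in CPM. The log2 fold change of -0.97 ± 0.69 was not called (edgeR adjusted p = 0.244) and was -0.38 without DM replicate 3 (edgeR adjusted p = 0.188). PLN lies on the other strand of CEP85L, and whether the counting used the strand is not stated. The plasma membrane pumps ATP2B1 and ATP2B4 were at 97.3 to 119 CPM and 59.7 to 79.1 CPM over the 6 samples, with log2 fold changes of 0.07 and 0.28.

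All 4 calcium buffers were called, 3 of them higher and 1 lower in DM. CASQ2, the calsequestrin of heart and slow fibres, was at 4.85, 1.61 and 4.96 CPM in GM and at 98.0, 114 and 172 CPM in DM. Its log2 fold change of 5.08 ± 0.34 (edgeR adjusted p = 4.08e-07) was the largest of the 14 called genes that averaged 5 CPM or more. CASQ1, the calsequestrin of fast fibres, was at 1.71, 1.75 and 1.85 CPM in GM and at 28.2, 26.7 and 29.3 CPM in DM, with little spread in either group (log2 fold change 3.99 ± 0.11, edgeR adjusted p = 1.55e-09). PVALB, the cytosolic buffer parvalbumin of fast fibres, was not read in GM and had 24, 23 and 52 counts in DM, at least 12.3-fold higher when each GM sample is set to 3 counts. CALR (chr7:13731958-13735788 in the table), calreticulin, the main buffer and chaperone of the endoplasmic reticulum in most cells, was at 2007, 2051 and 2051 CPM in GM and at 1030, 1032 and 981 CPM in DM. Its log2 fold change was -1.01 ± 0.06 (edgeR adjusted p = 1.21e-07). The difference itself was far larger than the spread between replicates, but it sat on the 2-fold minimum and the call was lost without DM replicate 3 (-0.97).

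Store-operated entry refills the SR through ORAI1, the channel in the plasma membrane, once STIM1 senses an empty store. ORAI1 was at 13.1, 12.5 and 13.3 CPM in GM and at 29.5, 29.1 and 35.9 CPM in DM (log2 fold change 1.29 ± 0.10, edgeR adjusted p = 1.06e-06). STIM1 was at 22.4, 23.0 and 23.8 CPM in GM and at 49.98, 50.4 and 33.5 CPM in DM. DM replicate 3 lay between the GM samples and the other DM samples, which left the log2 fold change at 0.95 ± 0.14 (edgeR adjusted p = 0.000131), not called, and without that sample it was called at 1.13. STIM2, the sensor of small store changes, was at 28.8, 25.6 and 28.4 CPM in GM and at 28.9, 30.5 and 42.7 CPM in DM, with DM replicate 3 here the highest and no call (edgeR adjusted p = 0.0684).

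The sodium-calcium exchangers SLC8A1 and SLC8A3 and the mitochondrial uniporter MCU were not called. SLC8A1 was at 11.8 to 14.97 CPM in GM and 12.1 to 15.2 CPM in DM, and SLC8A3 was at 1.99 to 3.70 CPM over all samples. MCU, at 13.3 to 16.8 CPM in GM and 16.7 to 20.6 CPM in DM, passed the p-value with a log2 fold change of 0.34 (edgeR adjusted p = 0.0263). For these 3 genes GM and DM samples overlapped.

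CaM kinase II reads calcium through calmodulin. CAMK2A was at 0.579, 0.553 and 0.211 CPM in GM and at 2.96, 2.46 and 3.65 CPM in DM, a rise at a low level (log2 fold change 2.74 ± 0.35, edgeR adjusted p = 5.81e-05). CAMK2D, the main form here, was at 58.1, 51.1 and 56.8 CPM in GM and at 93.5, 108 and 108 CPM in DM, below 2-fold with a log2 fold change of 0.90 ± 0.08 (edgeR adjusted p = 3.34e-06). CAMK2G was at 24.6 to 25.9 CPM in GM and 22.3 to 24.7 CPM in DM and was not called. CAMK2B had 5, 1 and 1 counts in GM and 3, 10 and 33 in DM. It was called (log2 fold change 2.80 ± 0.93, edgeR adjusted p = 0.0225) although its groups overlapped, and the call was lost without GM replicate 2 (edgeR adjusted p = 0.0850), GM replicate 3 (0.0765) or DM replicate 3 (0.129).

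Many of these genes have a paralogue with a related task, so the share of each gene in its family was taken within each sample from counts per kilobase, a measure that does not depend on library scaling. In 10 of 14 families the share of the chosen gene did not overlap between groups, and in 8 of these it was higher in DM. The CPM of single genes, a different measure, did not overlap between groups for 68.8% of all tested genes. The rate for shares in other gene families was not computed, so this count is not read as particular to these families. An exact two-sided permutation test of 3 against 3 samples cannot go below p = 0.1, which these 10 families reached (0.14 adjusted over 14 families), so none could pass 0.05.

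ATP2A1 made up 1.95, 1.01 and 2.45% of the SERCA pair in GM and 22.5, 21.1 and 30.8% in DM. The remaining 75.2 ± 5.25% (SD, n = 3) in DM was still ATP2A2. STAC3 went from 10.5 ± 2.50% of STAC and STAC3 in GM to 47.0 ± 3.10% in DM, where both paralogues were near parity. Among CACNA1S, CACNA1C and CACNA1H, the share of CACNA1H was 69.4 ± 1.96% in GM and 23.7 ± 1.81% in DM, that of CACNA1C 19.2 ± 2.11% and 48.4 ± 2.23%, and that of CACNA1S 11.4 ± 4.07% and 27.8 ± 4.0%. The cardiac-type pore gene was ahead of the skeletal one in every sample of both groups.

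RYR1 was the main ryanodine receptor in both groups, at 69.8, 59.9 and 71.4% of the family in GM and 72.9, 76.8 and 83.6% in DM. JPH2 went from 80.5 ± 1.57% of the junctophilins in GM to 92.3 ± 0.725% in DM, CACNB1 from 23.8 ± 2.25% to 36.4 ± 3.12% of the CACNB1 and CACNB3 pair, and ITPR1 from 78.0 ± 1.80% to 80.9 ± 0.129% of the inositol trisphosphate receptors. CASQ1 had a lower share in DM although both calsequestrins rose. It was at 33.2, 60.5 and 34.4% of the pair in GM and at 28.8, 24.9 and 19.4% in DM, and the difference between group means was -18.4 percentage points, or -9.45 without GM replicate 2, where CASQ2 had only 67 counts. ATP2B1 was the other gene with a lower share in DM, from 55.5 ± 0.640% to 51.9 ± 2.85% of the ATP2B1 and ATP2B4 pair, a difference of -3.59 percentage points that was -1.94 without DM replicate 1. The groups overlapped for STIM1 (permutation p = 0.3), TMEM38A (p = 0.5), SLC8A1 (p = 0.9) and CACNG1 (p = 0.4) in the exact permutation test, and for STIM1 the difference of 10.6 percentage points was 16.6 without DM replicate 3.

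**Figure D3:**
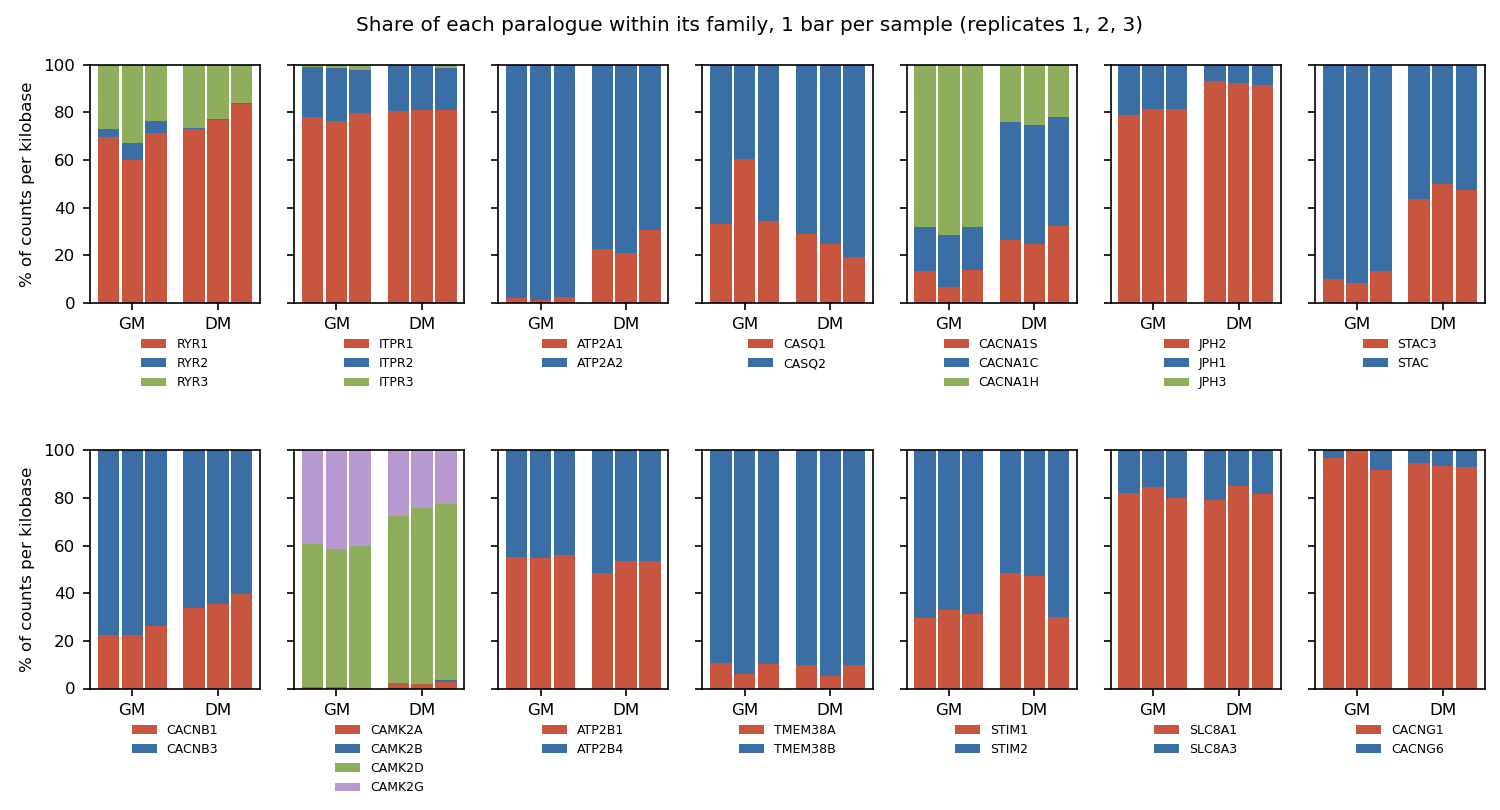
Share (vertical axis, percent of counts per kilobase) of each paralogue within 14 families, with 1 stacked bar per sample (GM replicates 1 to 3, then DM replicates 1 to 3). The red part is the gene whose share was tested: ATP2A1 takes at most 2.45% in GM and at least 21.1% in DM, STAC3 is near parity with STAC in DM, and STIM1 in DM replicate 3 (30.0%) lies within the GM range.

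Levels between genes were compared per length, on the deposited RPKM scale (reads per kilobase of feature length, scaled to the depth of the sample). In GM the order opened with CALR (1100 ± 11.6 RPKM, SD, n = 3), ATP2A2 (88.3 ± 5.32), BIN1 (81.3 ± 3.89), STAC (36.1 ± 0.974) and ATP2B1 (24.6 ± 2.03). The ranges of these 5 genes did not overlap, whereas 32 of the 42 neighbouring pairs in the whole order did. In DM the order was CALR (512 ± 16.6 RPKM), ATP2A2 (95.7 ± 2.97), BIN1 (78.6 ± 7.94), JPH2 (53.6 ± 0.722) and CASQ2 (46.9 ± 14.5), and JPH2 and CASQ2 could not be ordered beyond their spread. CASQ2 stood at rank 25 in GM and rank 5 in DM, and ATP2A1 at rank 24 and rank 7.

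RYR1 and CACNA1S, at ranks 27 and 30 in DM, stayed low per length although they were higher than in GM. RYR1 was at 0.468 ± 0.152 RPKM in GM and 4.80 ± 1.39 RPKM in DM, and CACNA1S at 0.582 ± 0.243 and 3.54 ± 1.13 RPKM. The summed RPKM of both calsequestrins was 1.60 to 2.96 in GM and 49.5 to 78.4 in DM, while the sum of both SERCA genes, already high in GM, was 85.0 to 96.2 in GM and 122 to 135 in DM. Together the 43 genes took 0.335 to 0.342% of all gene counts in GM and 0.279 to 0.305% in DM. That order turned without CALR, to 0.123 to 0.134% in GM and 0.181 to 0.210% in DM.

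**Figure D4:**
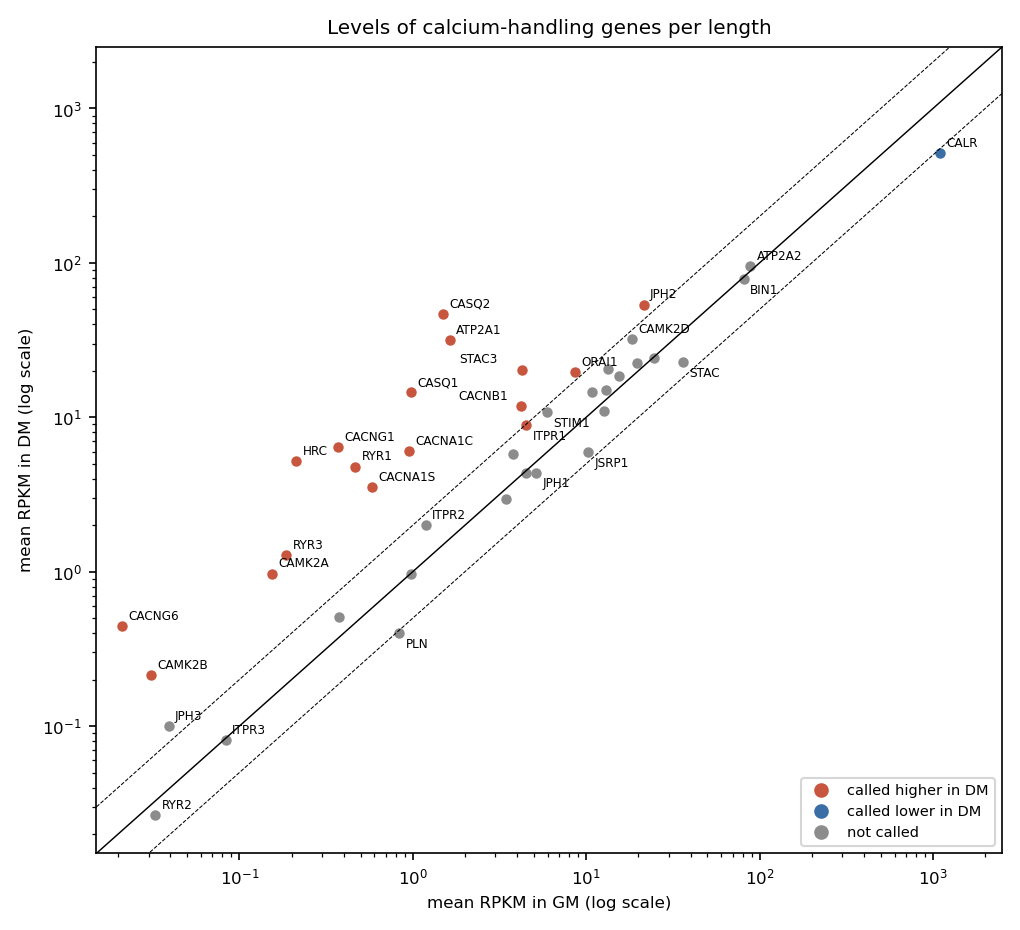
Mean RPKM in GM (horizontal axis) against mean RPKM in DM (vertical axis), both on log scales, for 42 calcium-handling genes (PVALB, listed at 0 in GM, cannot be drawn). The solid line marks equal levels and dashed lines a 2-fold difference. Called genes and some others are named, and CASQ2 and ATP2A1 lie farthest above the upper dashed line among genes over 1 RPKM in GM, whereas CALR stays the highest gene in both groups.

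The mRNA table listed 52 mRNA transcripts of the 43 genes, of which 22 were higher in DM (against 15.5% of all 16352 tested transcripts) and 1, that of CALR, was lower (against 10.1%). For 9 genes more than 1 transcript was listed, and since reads shared by transcripts of a gene were counted on each, the transcripts are not independent. The pair of CACNA1C transcripts had log2 fold changes of 2.72 and 2.73, the RYR3 pair 2.87 and 2.86, and the CACNB1 pair 1.65 and 1.47.

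Other genes of calcium handling were described from a list of 80 symbols, of which 68 were listed and 61 tested. Of these, 13 (21.3%) were higher in DM, against 15.0% of all tested genes, and 6 (9.84%) were lower, near the 10.3% of all tested genes, with a median log2 fold change of 0.41. The largest rises were those of S100A1, a modulator of RYR and SERCA, with 21, 10 and 9 counts in GM and 320, 288 and 591 in DM (log2 fold change 5.06 ± 0.36, edgeR adjusted p = 6.75e-07), and of ATP2B2, a plasma membrane pump, with 5, 3 and 3 counts in GM and 46, 25 and 57 in DM (3.67 ± 0.50, edgeR adjusted p = 8e-05). The largest falls were those of TRPC6, a receptor-operated cation channel, with 53, 47 and 67 counts in GM and 0, 2 and 11 in DM (-3.50 ± 0.69, edgeR adjusted p = 0.00112), and of STAC2, the third STAC adaptor, with 123, 134 and 123 counts in GM and 8, 11 and 16 in DM (-3.26 ± 0.28, edgeR adjusted p = 2.83e-06). Of 14 further voltage-gated channel subunits 4 were higher and 2 lower, of 12 triad and SR proteins 3 were higher and 2 lower, and of 7 genes of store-operated and TRPC entry 2 were higher and 1 lower. For calmodulin and CaM kinases 3 of 7 genes were higher, for further pumps and exchangers 1 of 5, and none was lower in these lists. Among 9 genes of mitochondrial calcium uptake none was higher and 1 was lower, and 6 others passed the adjusted p-value below 2-fold. None of 7 luminal calcium-binding proteins of the endoplasmic reticulum was called. All 7 passed the adjusted p-value below 2-fold, 5 with a negative and 2 with a positive log2 fold change. Over all tested genes, 63.0% passed that p-value with no minimum fold change.

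The labelled cell type was checked against markers. The satellite cell factor PAX7 was at 18.5 ± 0.174 CPM in GM and 9.77 ± 3.25 CPM in DM (SD, n = 3) without overlap and passed the p-value below 2-fold (log2 fold change -0.92, edgeR adjusted p = 0.00232), MYF5 was lower in DM (-2.70), and myogenin MYOG (1.66) and the muscle creatine kinase CKM (6.32) were higher. MYF6, ACTA1, MYLPF, TNNT3 and MYH3 were also higher. MYOD1 passed the p-value below 2-fold (0.90, edgeR adjusted p = 0.00202). DES was at 2274 ± 103 CPM in GM and 2051 ± 323 CPM in DM, with overlapping groups (-0.15, edgeR adjusted p = 0.217). Since several genes above also mark the heart (CACNA1C, CASQ2, ATP2A2), a cardiomyocyte list was summed: 3 of its 4 tested genes, MYH6, TNNT2 and TNNI3, were higher in DM, and its sum was 23.8 to 43.5 CPM in GM and 421 to 490 CPM in DM. TNNT2, which developing skeletal muscle also makes, was at 29.3 ± 8.75 CPM in GM and 392 ± 26.3 CPM in DM. MYH6, a cardiac myosin heavy chain, was at 5.26 ± 1.78 CPM in GM and 65.3 ± 19.5 CPM in DM. TBX5, a transcription factor of the heart and limb, had 43, 45 and 47 counts in GM and 66, 61 and 52 in DM, without overlap in CPM and not called (log2 fold change 0.58, edgeR adjusted p = 0.0709). TNNI3, cardiac troponin I, was at 0.06 ± 0.0667 CPM in GM and 0.814 ± 0.918 CPM in DM. The remaining 6 markers of the list were at or near 0: NPPB and MYL7 had no counts in any sample, and NPPA, GATA4, NKX2-5 and HAND2 had at most 3 counts in any sample. The part of cardiac-type cells in the results was not tested. Smooth muscle, too, uses CACNA1C, ITPR1 and ATP2A2, and its markers, joined with those of pericytes, summed to 1726 to 1927 CPM in GM and 1750 to 2076 CPM in DM, with 1 of 10 higher and 1 lower. Fibroblast markers summed to 35798 to 36576 CPM in GM and 98040 to 123806 CPM in DM, with 7 of 9 higher. Most of this sum was COL1A1, COL1A2 and COL3A1, with means of 15287, 10729 and 8298 CPM in GM and 44328, 23420 and 39251 CPM in DM. PDGFRA (log2 fold change 0.58) and POSTN (-0.93) passed the p-value below 2-fold, and TCF21 had too few counts to be tested. The part of fibroblasts in the changes of genes that they also use, such as CALR, ITPR1, STIM1 and ORAI1, was not tested. The adipocyte list (2 of 7 higher, 1 lower), the endothelial list (1 of 6 higher, 2 lower) and the macrophage list (1 of 5 higher, 1 lower) summed to at most 13.8 CPM in any sample, and the Schwann and neural list, with none of 3 called, to 46.2 to 49.9 CPM in GM and 30.3 to 37.0 CPM in DM.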

How the data were processed

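PolyA RNA-seq tables of 3 GM and 3 DM samples were used, grouped by their titles. The count columns hold raw counts per gene or mRNA transcript, deposited by the authors without normalization. The RPKM columns were computed by the authors from these counts, the deposited feature length and each sample's summed gene counts. The study's methods name HISAT2 and the buffalo genome, the submitters' processing notes name Bowtie 0.12.2 and the mouse builds mm8 and mm9, and the tables list cattle Ensembl identifiers. How strand and multiply assigned reads were handled is not given in the sources used here. Lists of the authors' fold changes, p-values and q-values, and the ncRNA table, were not used.

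Features with at least 10 counts over the 6 samples were tested with edgeR 4.0.16 in R 4.3.3 (glmQLFit, glmQLFTest, TMM), and standard errors came from the F statistic. Alternatives were DESeq2 1.42.0, library size alone, DESeq2 size factors, other filters, a test against a 2-fold change, no minimum fold change, a replicate block and each sample left out. Among the other filters was the RPKM rule by which the paper defined reliably expressed genes. The bound for PVALB and the exact 95% interval for CACNG6 cover counting error only. Deviations of same-numbered GM and DM samples correlated at -0.0546 to -0.00635, so they were not treated as pairs. Tables were summarised in Python 3.11.15 (numpy 2.4.6, pandas 2.3.3, scipy 1.17.1), and the steps were tested on simulated data. In the simulation of the fit, equal numbers of genes were raised and lowered, and far fewer than were called here. It therefore does not check the scaling, or calls near 2-fold, under changes as many and as uneven as in these data.

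The gene group, the companion list and the marker lists were chosen with earlier results of these data known. Values per sample were set for called genes averaging 5 CPM or more and for paralogue families whose mean reaches 5 CPM. Some genes of these families, and the other genes of the group, are given by counts, ranges, means or an upper bound. In the companion list the 2 largest rises and the 2 largest falls are named.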

Additional observations from a re-analysis of the deposited data

How the results depend on the processing

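The number of genes called higher, 18, lay between 16 and 19 under every alternative but the RPKM rule (over 50% of samples at 1 RPKM or higher), with 9 of 27 tested (STIM1, called under this rule, among them), and no minimum fold change, with 27. The RPKM rule is the paper's own criterion for reliably expressed genes, to which it limited its calls. It left CACNA1S, CACNA1C, CACNG1, CACNG6, RYR1, RYR3, HRC, PVALB, CAMK2A and CAMK2B untested, so these genes could not be called under it. The share of all genes called under that rule was not computed. Each sample left out in turn gave 17 to 19. The 1 gene called lower, CALR, was lost (0) with filterByExpr, the RPKM rule, the test against a 2-fold change and without DM replicate 3 (range 0 to 1 over left-out samples), and 3 genes were lower with no minimum fold change (63.0% of all tested genes passed that rule in either direction); its log2 fold change stayed between -1.10 and -0.95. CALR's transcript was likewise lost (0) without DM replicate 3 (0 to 1). Companion genes higher numbered 7 under the RPKM rule and 29 with no minimum fold change, and those lower 3 and 16, against 13 and 6. The test against a 2-fold change also lost ITPR1 (adjusted p = 0.381) and CAMK2B (0.135) in edgeR. Per-kilobase scaling and the feature table moved 2 share differences: JPH2 to 18.9 percentage points on raw counts against 11.8, and CAMK2A to 0.767 in the mRNA table against 1.70.

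The replicate block gave 18 genes higher and 1 lower, 13 companions higher and 7 lower, and 22 transcripts higher and 1 lower. None of 6 samples correlated best with its own number.

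Genes near 0 changed sign, none of them called: with library size alone BIN1 (-0.047), ITPR3 (-0.036), ATP2B1 (-0.025), SLC8A1 (-0.052) and SLC8A3 (-0.021), and over left-out samples BIN1 (-0.022 to 0.11), ITPR3 (-0.25 to 0.36), SLC8A1 (-0.029 to 0.15) and SLC8A3 (-0.16 to 0.25). The differences in share of TMEM38A (-2.18 to 0.768 percentage points over left-out samples) and SLC8A1 (-1.89 to 1.17) also changed sign. Of 476 values for 35 named genes, 452 kept direction and call. Depth limited PVALB, CACNG6, CAMK2B, JPH3, RYR2 and ITPR3, and 3 samples per group limited every share test. The promoter comparison was not run because no promoter sequences were given.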
